A study of Mus musculus with 32 samples.

Results

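Iron handling in mouse liver was followed through 10 genes that carry, sense, store, export or set the level of iron: transferrin (Trf), its receptors Tfrc and Tfr2, hepcidin (Hamp) and its inducer Bmp6, the iron exporter ferroportin (Slc40a1), the ferroxidase ceruloplasmin (Cp), the ferritin subunits Fth1 and Ftl1, and the iron importer Slc11a2. They were taken from a table of estimated read counts, by symbols assigned through gene position, and all 10 were found among its 55421 genes. The table holds 32 libraries from the livers of 16 mice aged 71 to 77 days, with 4 mice in each of 4 groups: flox control or Mettl14 knockout (KO), each after hepatectomy or sham surgery. Mettl14 is a subunit of the enzyme complex that writes N6-methyladenosine (m6A) on RNA. Each liver gave an input library (mRNA-seq, TruSeq Stranded mRNA kit) and an m6A immunoprecipitation (IP) library, made with the NEBNext Ultra RNA kit from RNA broken to about 100 nucleotides and pulled down with an anti-m6A antibody. Neither the promoter driving deletion of Mettl14 nor the time from surgery to sampling is known from the sources used here. A value in an IP library joins the abundance of an RNA with its methylation, and the kits of the library types differ, so kit and pull-down cannot be told apart in a level of IP over input.

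Hepatocytes secrete transferrin, which carries ferric iron in plasma and delivers it to cells through the transferrin receptor Tfrc. Tfr2, a relative found mainly on hepatocytes, takes part in sensing iron-loaded transferrin. Bmp6, made mostly by the endothelial cells of the liver sinusoids, and inflammatory signals through Stat3 raise hepcidin, a peptide hormone that binds ferroportin and stops iron leaving cells. Ceruloplasmin oxidises the exported iron so that transferrin can take it up, ferritin cages of heavy (Fth1) and light (Ftl1) chains store iron inside cells, and Slc11a2 moves ferrous iron across endosomal and plasma membranes.

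Mice have a pair of neighbouring hepcidin genes, Hamp (ENSMUSG00000050440, chromosome 7, 30942368 to 30944032, minus strand) and Hamp2 (ENSMUSG00000056978, chromosome 7, 30922372 to 30924681, minus strand), and their upstream sequences are shown because the genes share most bases there yet lie far apart in level. Both runs are the 250 bases before the gene's start in RefSeq on GRCm38.p6, 5′ to 3′ on the minus strand, chr7:30944030-30944279 for Hamp and chr7:30924182-30924431 for Hamp2. The Hamp2 model of the count table reaches upstream of that RefSeq start, to 30924681, so the whole Hamp2 run lies within the model. The part of those bases in the Hamp2 level was not tested. Capitals mark exact matches to GGCGCC, the core of a BMP response element, and to TTCNNNGAA, the core of a Stat site, searched on both strands.
Hamp: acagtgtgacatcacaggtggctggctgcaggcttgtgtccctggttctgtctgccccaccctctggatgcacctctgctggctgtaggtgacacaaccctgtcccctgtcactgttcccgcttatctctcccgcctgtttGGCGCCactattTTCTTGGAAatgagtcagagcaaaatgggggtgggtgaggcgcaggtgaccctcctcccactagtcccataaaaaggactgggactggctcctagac
Hamp2: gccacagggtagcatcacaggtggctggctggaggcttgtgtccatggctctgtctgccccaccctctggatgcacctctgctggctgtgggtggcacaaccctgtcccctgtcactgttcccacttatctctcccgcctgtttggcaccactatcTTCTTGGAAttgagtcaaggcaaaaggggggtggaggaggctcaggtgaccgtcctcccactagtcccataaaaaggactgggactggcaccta
Aligned without gaps, the runs were identical at 227 of 247 bases (91.9%). The GGCGCC match of Hamp, which begins 109 bases before the start, carries the substitution G145A in Hamp2, counted from 1 at the first printed base of Hamp. The TTCNNNGAA match was in both, 97 bases before the start in Hamp and 94 in Hamp2. Of 32851 RefSeq promoter windows of the same length, 9.59% held GGCGCC, 7.02% held TTCNNNGAA and 0.368% held both. In the input libraries Hamp averaged 3104 CPM (counts as a share of the library total, scaled to 1e6) per kilobase of exon and Hamp2 averaged 7.64, a mean that rests on 1 sham KO library at 56.3 CPM (96.5 per kilobase). The median input held 1254 CPM of Hamp and 0.220 CPM of Hamp2. Reads from near-identical copies can be split or dropped by a counting program, so both hepcidin levels are uncertain.

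Input libraries held 8177746 to 12533871 counts and IP libraries 7133726 to 24297713. Genes with at least 10 counts numbered 4340 to 6156 in flox inputs, 4176 to 9354 in KO inputs and 6676 to 16846 in IP libraries. Mettl14 (ENSMUSG00000028114) had 0 counts in 16 of 16 inputs, flox controls included, which allows up to 3 counts in each, and 0 to 8.14 CPM in IP libraries, so it does not check the genotype labels. All 8 hepatocyte markers were present, with a summed input level of 58009 to 72756 CPM. In bulk liver, fewer cells of a type and less RNA per cell cannot be told apart. Tests below are edgeR quasi-likelihood fits over all genes with Benjamini-Hochberg adjustment, called at an adjusted p under 0.05, and p-values measure the spread between these mice.

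Per kilobase of exon, the input levels fell in the order hepcidin 3104, transferrin 3068, Ftl1 762, Fth1 267, ceruloplasmin 147, Tfr2 41.9, ferroportin 13.7, Tfrc 4.31, Bmp6 3.87 and Slc11a2 3.54 CPM per kilobase, as means over 16 libraries. By mean ± SD over libraries, neighbours that overlapped were hepcidin and transferrin, Fth1 and ceruloplasmin, Tfr2 and ferroportin, and the 4 lowest genes. At the low end, Bmp6 was at 0 in 12 of 16 inputs, Slc11a2 in 9 and Tfrc in 8. IP libraries gave the order hepcidin 2727, transferrin 2111, Ftl1 1017, Fth1 218, ceruloplasmin 93.6, Tfr2 54.7, ferroportin 17.9, Bmp6 3.33, Slc11a2 2.31 and Tfrc 1.42, and there Tfrc was at 0 in 4 libraries and Slc11a2 and Bmp6 in 1 each. The plasma carrier and the hepatic hormone thus led both kinds of library, followed by the storage subunits, and the receptor Tfrc, the importer and the endothelial ligand came last.

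**Figure D1:**
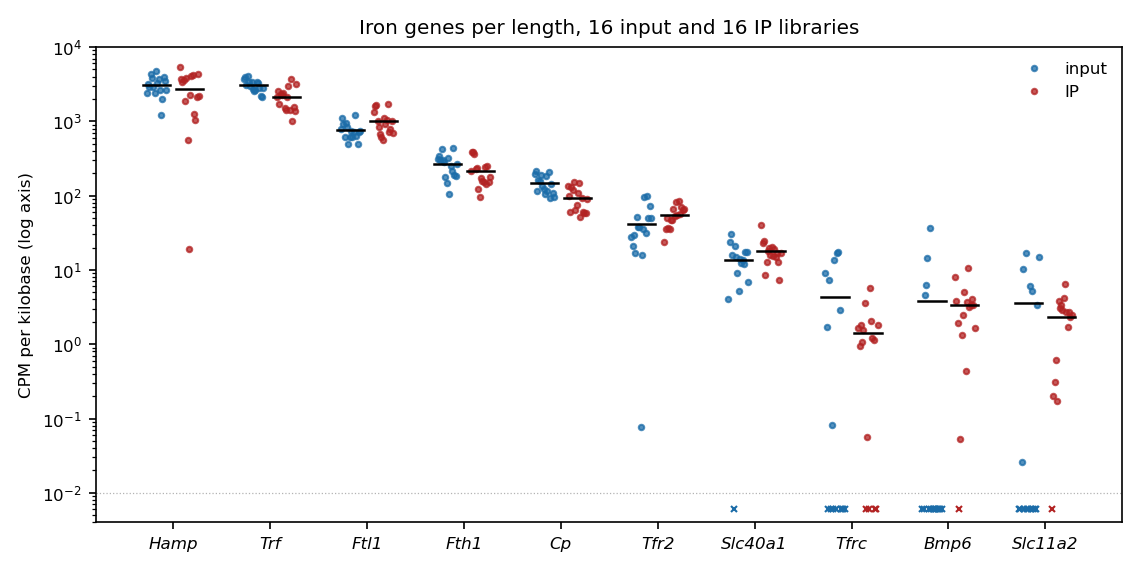
Level of each of the 10 genes in CPM per kilobase of exon (log axis), with one point for each of 16 input and 16 IP libraries, a black bar at the mean, and crosses below the dotted line for libraries at 0. Hepcidin and transferrin lie highest, at input means of 3104 and 3068, and crosses appear mainly for Tfrc, Slc11a2 and Bmp6.

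Transferrin RNA (Trf, ENSMUSG00000032554, chromosome 9, 103204001 to 103230444, minus strand) had higher means in KO than in flox input libraries after both surgeries. The difference passed the test in some fits with TMM scaling, described below, and with none of the other scalings tried. Sham flox inputs held 9371, 7199.7, 7052 and 9442 CPM, and sham KO inputs held 8404, 8716, 11078 and 10991 CPM. After hepatectomy the flox inputs held 11146, 10020.4, 11181 and 9079.8 CPM and the KO inputs 12428, 13089.8, 10232 and 13538 CPM. By library total the genotypes overlapped under both surgeries, since the lowest KO values lay below the highest flox values. The group means were 8266 ± 1318, 9797 ± 1435, 10357 ± 1008 and 12322 ± 1466 CPM (SD, n = 4 each), in the same order.

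Scaling by edgeR's TMM factors, which set library sizes by the bulk of genes, separated the groups that differ in 1 factor. Scaled values were 8723, 6386, 6519 and 8512 CPM in sham flox, 9025, 9969, 12361 and 11334 in sham KO, 9889, 10037, 10367 and 8765 in flox after hepatectomy and 12508, 12511, 12478 and 14922 in KO after hepatectomy. None of the 4 pairs of groups differing in 1 factor then overlapped, as was the case, in the same upward direction, for 3.03% (KO, sham), 2.74% (KO, hepatectomy), 1.69% (surgery, flox) and 2.02% (surgery, KO) of genes of at least 50 CPM. For KO against flox the log2 difference was 0.51 (SE 0.089, adjusted p = 0.0028) in sham livers, 1.42-fold, and 0.44 (SE 0.089, adjusted p = 0.0198) after hepatectomy, 1.35-fold. Trf was the only member called in either comparison, where 0.0114% and 0.0342% of 8769 genes were called, and it had the lowest p of them in sham livers and rank 3 after hepatectomy. Hepatectomy against sham gave 0.37 (SE 0.089, adjusted p = 0.229) in flox and 0.30 (SE 0.089, adjusted p = 1.0) in KO livers, and the interaction was -0.07 (SE 0.13), and none of the 3 passed in this fit. The surgery difference in flox was called by DESeq2 (0.37, adjusted p = 0.0435) and in edgeR with a replicate block (0.38, adjusted p = 0.0072), and that in KO was called in the edgeR fit without the 2 sham flox mice aged 77 days (0.31, adjusted p = 0.0021).

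The size of the genotype difference moved with the scaling. TMM factors were 1.07 to 1.13 in sham flox inputs and 0.874 to 0.970 in sham KO inputs, and the median gene was itself 0.29 higher on the log2 scale in sham KO and 0.46 higher in hepatectomised KO livers. Relative to that median the Trf difference was 0.21 in sham and -0.03 in hepatectomised livers. With library totals alone it was 0.25 and 0.26, with upper-quartile factors 0.27 and 0.23, and with DESeq2 0.27 and 0.27, and none of those passed the threshold. Fits limited to the 8 libraries of the comparison gave 0.45 and 0.39 and fits limited to genes of at least 50 CPM gave 0.34 and 0.33, also without a call. The difference was above 0 in each of these fits, and below it only relative to the median gene after hepatectomy. KO inputs also had more genes with at least 10 counts, a median of 6211 against 4719 in flox inputs, and the part of that in the Trf difference was not tested.

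**Figure D2:**
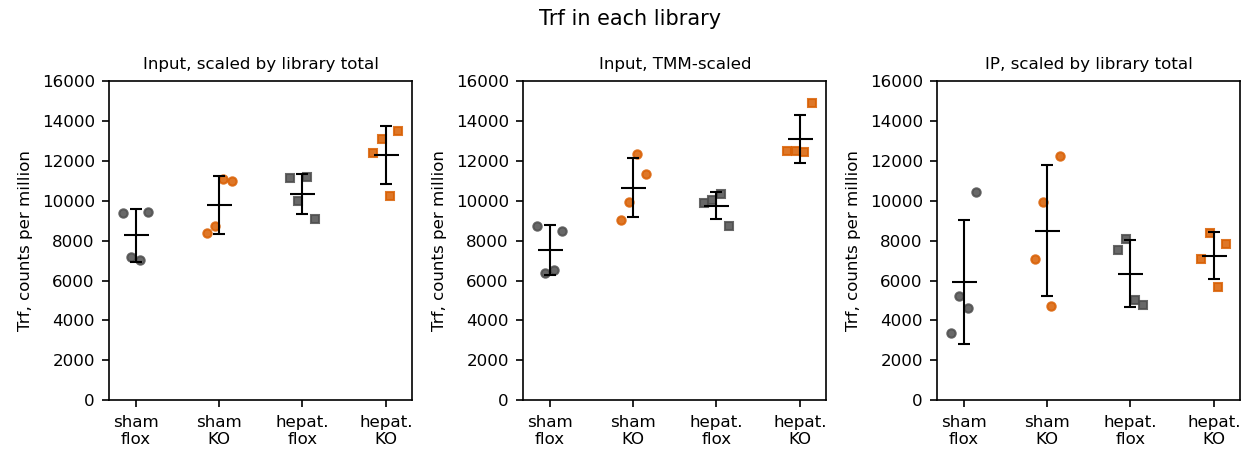
Transferrin in CPM for each library by group, with mean ± SD, for input libraries by library total, the same inputs after TMM scaling, and IP libraries by total. The groups overlap in the first panel and separate in the second, where the means are 7535, 10672, 9764 and 13105 CPM, and the sham flox and sham KO IP libraries spread widest.

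**Figure D3:**
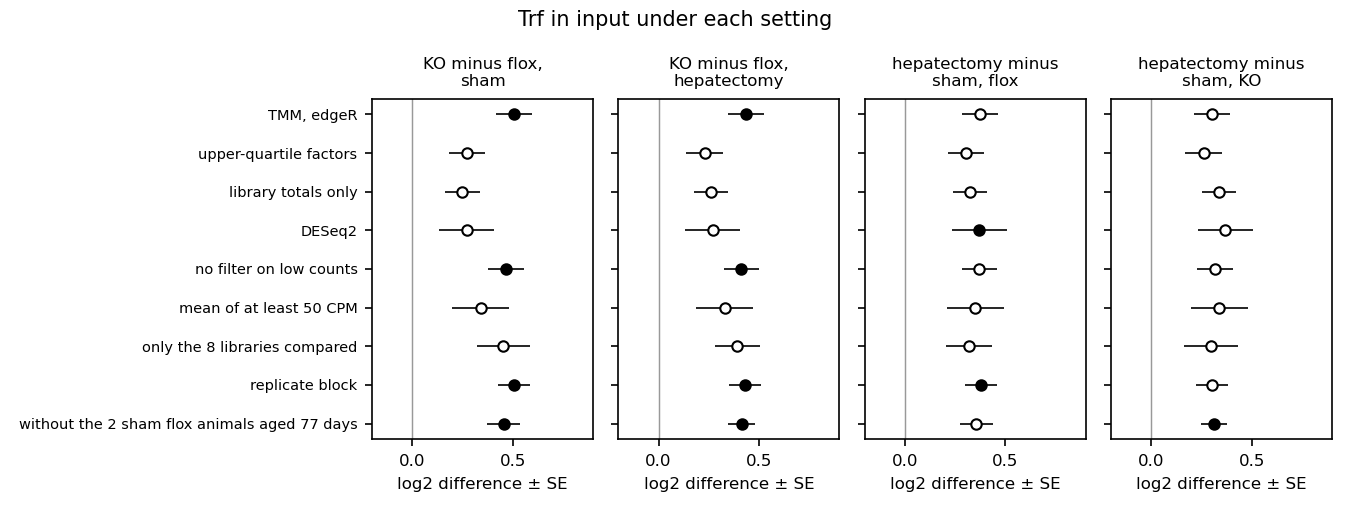
Log2 difference of transferrin in input libraries ± SE for the 4 comparisons of groups that differ in 1 factor, under 9 settings, with filled points where the adjusted p was under 0.05. All points lie above 0, and for KO against flox the calls are lost with library totals, upper-quartile factors, DESeq2, the 50 CPM minimum and the 8-library fits.

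Transferrin in the IP libraries varied more between mice, with a median coefficient of variation within groups of 32.6% against 13.3% in inputs. Sham flox IP libraries held 3364, 5225, 4639 and 10459.7 CPM, sham KO 7104, 9941, 4742 and 12254 CPM, hepatectomised flox 7513, 8091, 5020.1 and 4785 CPM and hepatectomised KO 7072, 8406, 5663 and 7836 CPM. The groups overlapped in every comparison, and the log2 differences of 0.39 (KO against flox, sham), -0.09 (KO against flox, hepatectomy), 0.17 (surgery, flox) and -0.31 (surgery, KO) did not pass. The genotype difference called in inputs was thus not called in IP libraries.

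Per mouse, log2 of IP over input, taken as log2((IP CPM + 1)/(input CPM + 1)), was -1.48, -0.46, -0.60 and 0.15 in sham flox, -0.24, 0.19, -1.22 and 0.16 in sham KO, -0.57, -0.31, -1.16 and -0.92 in flox after hepatectomy and -0.81, -0.64, -0.85 and -0.79 in KO after hepatectomy. Transferrin was lower in IP than in input in 13 of 16 mice, and in 4 of 4 in both hepatectomised groups. The mean was -0.74 ± 0.37 in hepatectomised flox and -0.77 ± 0.094 in hepatectomised KO livers (SD, n = 4), whereas the median of 2209 genes of at least 50 CPM was above 0, at 0.73 and 0.24. Among those genes Trf stood at the 11.9th, 19.9th, 7.79th and 19.0th percentile in the 4 groups. In edgeR with TMM factors the fall of IP below input passed in hepatectomised KO livers, at -0.98 (SE 0.20, adjusted p = 0.0031), where Trf was the 1 member called, with 0.37% of 14328 genes called in all and 0.328% lower, and was -0.23, -0.36 and -0.33 in sham flox, sham KO and hepatectomised flox, where 0.279%, 0.0209% and 1.24% of genes were called. Those 3 groups had 2, 2 and 0 members at an unadjusted p under 0.05, and DESeq2 called 2, 1 and 0. Over all genes 4340, 2935 and 5003 of 14328 had such an unadjusted p, and DESeq2 called 2040 to 4127 across the 4 groups. For Trf, hepatectomised flox livers passed too with upper-quartile factors (-1.22, adjusted p = 0.0154) and without a filter on low counts (-0.55, adjusted p = 0.0436, edgeR). The difference between KO and flox after hepatectomy was -0.65 (SE 0.27, adjusted p = 0.15), so the groups were not shown to differ. The call in hepatectomised KO livers was lost without replicate 1 (-0.83), 3 (-0.88) or 4 (-0.70) of that group, under library totals (-0.76), upper-quartile factors (-0.86) and the 50 CPM minimum (-0.81), and with DESeq2 (-0.66), which called 0 members there. In the edgeR fit with TMM factors, 4 of the 8 hepatocyte markers were also called lower and 0 higher in IP than in input in that group. Their median log2 difference was -1.01, beside 0.31 over all genes. The part of a fall shared by hepatocyte genes in the Trf value was not tested.

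Ceruloplasmin (Cp, ENSMUSG00000003617, chromosome 3, 19957054 to 20009145, plus strand) was, like transferrin, lower in IP than in input. Its log2 IP over input was -0.66, -1.33, -0.87 and -0.10 in sham flox, 0.03, -0.33, -1.15 and -1.14 in sham KO, -0.41, -0.34, -1.09 and -0.70 in flox after hepatectomy and -0.57, -1.11, -0.96 and -0.32 in KO after hepatectomy. That is below 0 in 15 of 16 mice, with group means of -0.74 ± 0.51, -0.65 ± 0.59, -0.63 ± 0.34 and -0.74 ± 0.36 (SD, n = 4). The edgeR fit of IP against input called it in no group, the lowest value being -0.90 (SE 0.34, adjusted p = 0.17) in hepatectomised KO livers. Input levels were 896, 1389, 1032 and 930.3 CPM in sham flox, 1020.4, 1763, 1109 and 1963 in sham KO, 1523, 1826, 1288 and 1163 in flox after hepatectomy and 1892, 2055, 1109 and 1557 in KO after hepatectomy. All groups overlapped, and the KO difference of 0.73 in sham livers (SE 0.29, adjusted p = 0.45) did not pass. Cp shares 108 exon bases with Hps3 on the opposite strand, and the sources used here do not give the strand setting of the counting.

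Ferroportin (Slc40a1, ENSMUSG00000025993, chromosome 1, 45908068 to 45926523, minus strand), through which hepatocytes and macrophages release iron, did not differ between groups beyond its spread. Inputs held 109, 157, 155 and 62.8 CPM in sham flox, 46.7, 126, 111 and 124 in sham KO, 0, 189, 134 and 82.4 in flox after hepatectomy and 37.0, 216, 276 and 144 in KO after hepatectomy. Within the hepatectomised flox group 1 library held no count, although the IP library of the same mouse held 116 CPM. IP libraries held 151, 114, 66.5 and 150.1 CPM in sham flox, 181, 137, 173 and 133 in sham KO, 116, 159.9, 178 and 141 for hepatectomised flox and 364, 209.5, 222 and 76.1 for hepatectomised KO livers, overlapping in every comparison. In edgeR no difference passed, and the summed level of 10 Kupffer cell and macrophage markers ranged from 128 to 1251 CPM in inputs.

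Both ferritin chains had higher mean IP levels in hepatectomised KO than in hepatectomised flox livers, and neither passed the edgeR test over all genes with TMM factors. For the light chain (Ftl1, ENSMUSG00000050708, chromosome 7, 45457944 to 45459884, minus strand), hepatectomised flox IP libraries held 1112, 911, 835 and 759 CPM and hepatectomised KO IP libraries 1779.7, 2182, 2200.4 and 1344 CPM. Every KO value exceeded every flox value by library total, as happened for 10.2% of genes of at least 50 CPM in this comparison, and the groups overlapped after TMM scaling. The edgeR difference was 0.78 (SE 0.27, adjusted p = 0.19), while DESeq2 called Ftl1 (0.89, adjusted p = 0.0133), as did edgeR limited to genes of at least 50 CPM (1.02, adjusted p = 0.0219). In sham livers the IP libraries held 970.3, 1054, 1344 and 929 CPM in flox and 1464, 1218, 1382 and 2325 CPM in KO mice, and these ranges overlapped.

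Light-chain inputs were closer together, at 843, 655, 973 and 996 CPM in sham flox, 996, 813, 957 and 1641 in sham KO, 1278, 1128, 665 and 829 in flox after hepatectomy and 1044, 1469.7, 1217 and 828 in KO after hepatectomy. After TMM scaling every sham KO input lay above every sham flox one, as for 3.03% of genes of at least 50 CPM. The edgeR difference there was 0.59 (SE 0.35, adjusted p = 0.76). The per-mouse log2 IP over input was -0.20, -0.31, 0.33 and -0.13 in flox after hepatectomy and 0.77, 0.57, 0.85 and 0.70 in KO after hepatectomy, with no overlap, as in 2.1% of genes of at least 50 CPM. The means differed by 0.80 (exact two-sided permutation test, p = 0.0286, the smallest that 4 against 4 can give, 1 of 40 such member tests). With TMM scaling the difference was 0.23 (exact permutation p = 0.229), and in the edgeR fit of IP/input it was 0.25 (SE 0.44). A short gene model of 109 bases (ENSMUSG00000076036) lies wholly inside a Ftl1 exon on the same strand and holds 96046 input and 221430 IP counts, so part of the light-chain signal was assigned to it. Adding its counts, a choice made after seeing the data, gave a difference of 0.93 (exact permutation p = 0.0286). A further model (ENSMUSG00000110350) shares 355 exon bases on the opposite strand.

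The heavy chain (Fth1, ENSMUSG00000024661, chromosome 19, 9980598 to 9985098, plus strand), which oxidises iron on its way into the cage, had IP levels of 493, 863, 532 and 618 CPM in sham flox, 597, 547, 522 and 845 in sham KO, 802, 811, 425 and 334 in flox after hepatectomy and 752, 1327, 1359.9 and 1248 in KO after hepatectomy. In the hepatectomised KO group 3 of 4 libraries stood above all others of the gene, and the other fell among the flox values. The difference from flox after hepatectomy was 0.69 (SE 0.32, adjusted p = 0.34) and from sham KO 0.83 (SE 0.32, adjusted p = 0.36). Its inputs held 1508, 653, 641 and 919 CPM in sham flox, 1119.8, 369, 867 and 748 in sham KO, 1060.4, 970.0, 627 and 509 in flox after hepatectomy and 1068, 1196, 1055 and 1484 in KO after hepatectomy. By library total the hepatectomised KO inputs overlapped the flox range through a single flox library. After TMM scaling the groups did not overlap, at 1075 to 1636 CPM in KO and 491 to 972 CPM in flox. Such a separation, higher in KO, was seen for 2.74% of genes of at least 50 CPM. The edgeR difference was 0.79 (SE 0.38, adjusted p = 0.33).

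Markers of cell types were summed in the same IP libraries. The 8 hepatocyte markers summed to 63411 to 82191 CPM in hepatectomised flox and 18633 to 65450 CPM in hepatectomised KO IP libraries, the 8 stellate cell markers to 215 to 316 and 527 to 774 CPM, the 10 Kupffer cell and macrophage markers to 463 to 715 and 508 to 1363 CPM, and the 7 sinusoidal endothelial markers to 325 to 471 and 306 to 972 CPM. The 5 cholangiocyte markers summed to 8.98 to 187 and 54.4 to 215 CPM there, the 6 neutrophil markers to 0 to 10.5 and 0.175 to 63.6 CPM, and the 6 lymphocyte markers to 0 to 3.43 and 0 to 13.0 CPM, and the 5 erythroid markers to 31.7 to 164 and 26.7 to 57.2 CPM. In the inputs of those groups hepatocyte markers summed to 64746 to 71221 and 58009 to 69499 CPM, stellate markers to 233 to 566 and 298 to 759 CPM, Kupffer cell and macrophage markers to 128 to 1251 and 234 to 710.5 CPM, endothelial markers to 45.6 to 682 and 211 to 334 CPM, and erythroid markers to 0 to 98.0 and 37.6 to 204 CPM. Those input ranges overlapped between flox and KO, and in the IP libraries all but the stellate ranges overlapped too. In edgeR 3 of the 8 hepatocyte markers were called lower and 0 higher in these IP libraries, where 1.16% of all genes were called lower. Their part in the ferritin values and in the other IP differences after hepatectomy was not tested.

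**Figure D4:**
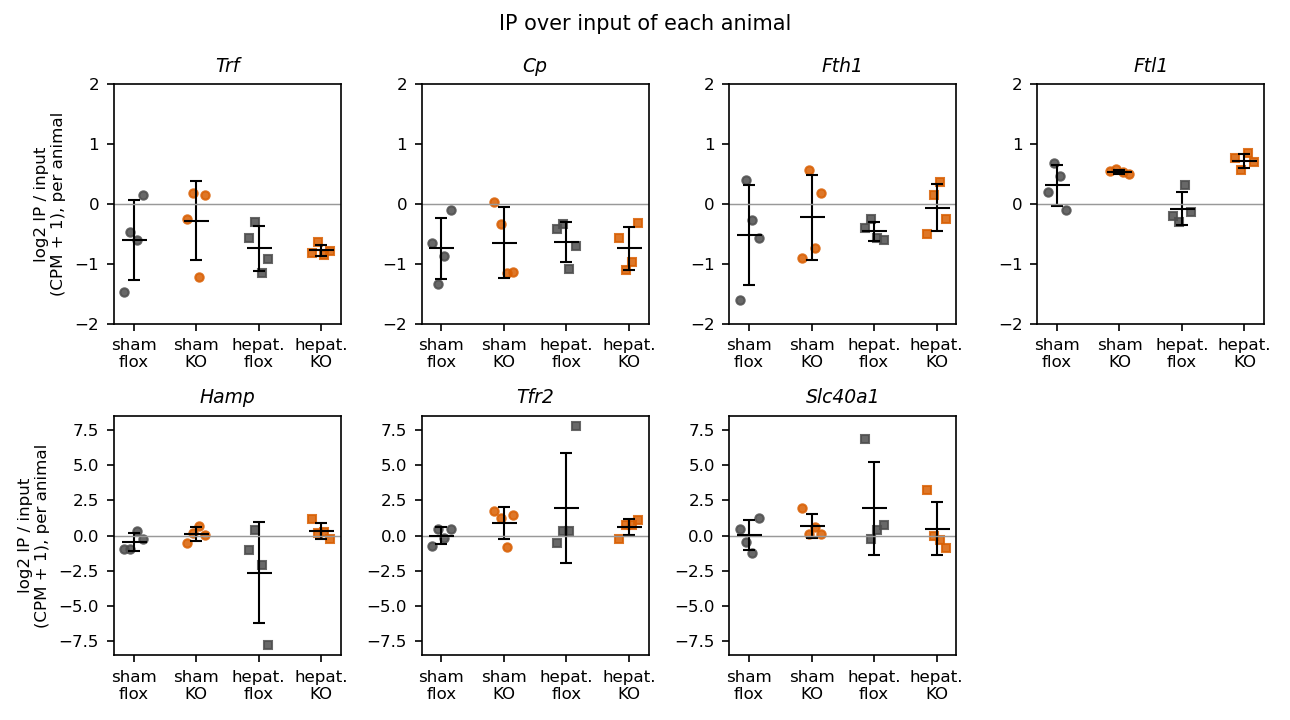
Log2 IP over input per mouse, log2((IP CPM + 1)/(input CPM + 1)), for Trf, Cp, Fth1, Ftl1, Hamp, Tfr2 and Slc40a1 by group, with mean ± SD (n = 4) and different axis ranges in the upper and lower row. Trf and Cp lie mostly below 0, Ftl1 separates hepatectomised KO from flox by 0.80, and single mice stand at -7.81 for Hamp, 7.76 for Tfr2 and 6.88 for Slc40a1.

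Hepcidin in input was high in every group and no difference between groups passed. Sham flox inputs held 829.6, 1639, 1409 and 1084 CPM, sham KO 1325, 1515, 1084 and 496 CPM, hepatectomised flox 1569.7, 1196, 986 and 1966 CPM and hepatectomised KO 989.7, 1312, 1174 and 1787 CPM. The ranges overlapped throughout and the differences were 0.12 and 0.07 for KO against flox and 0.26 and 0.22 for surgery, each with an SE of 0.32. In IP libraries the values were 422, 859, 1759.9 and 892 CPM in sham flox, 918, 1682, 1730.3 and 513 in sham KO, 765, 1556, 227 and 7.77 in flox after hepatectomy and 2188, 1503, 1385 and 1479 in KO after hepatectomy. One hepatectomised flox mouse had 113 hepcidin counts in IP beside 1966 CPM in input, and its log2 IP over input of -7.81 stands in a group with a mean of -2.64 ± 3.59, against 0.33 ± 0.59 in hepatectomised KO livers (difference 2.97, exact permutation p = 0.114). In edgeR the IP difference between KO and flox after hepatectomy did not pass for Hamp, except without a filter on low counts (1.05, adjusted p = 0.0183). Hepcidin varied more between IP libraries of a group than genes of like level, with a coefficient of variation of 53.1% against a median of 28.0% over 144 genes.

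Hamp2 in IP libraries was 24.3, 64.4, 11.9 and 15.0 CPM in sham flox, 39.7, 18.0, 33.5 and 52.4 in sham KO, 0.613, 0.437, 10.6 and 0 in flox after hepatectomy and 1.16, 22.7, 22.0 and 0 in KO after hepatectomy. It was above 10 CPM in 8 of 8 sham IP libraries and under 2 CPM in 5 of 8 hepatectomised ones. Surgery gave -3.28 (SE 1.47, adjusted p = 0.65) in flox and -1.70 (SE 1.38, adjusted p = 0.90) in KO livers in edgeR, and neither passed. The share of all genes with such a split was not counted.

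Tfr2 (ENSMUSG00000029716, chromosome 5, 137569840 to 137587481, plus strand), the hepatocyte sensor of iron-loaded transferrin, held 247, 304, 275 and 289.5 CPM in sham flox, 233, 359.5, 235 and 370.5 in sham KO, 152, 202, 205 and 288 in flox after hepatectomy and 103, 154, 215 and 161 in KO after hepatectomy (IP libraries). After hepatectomy each KO value lay below each sham KO value under both scalings, as happened by library total for 8.57% of genes of at least 50 CPM, with a difference of -1.01 (SE 0.33, adjusted p = 0.229). KO against flox after hepatectomy gave -0.69 (SE 0.33, adjusted p = 0.36). Inputs held 423, 217, 314 and 215 CPM in sham flox, 68.7, 155, 412 and 135 in sham KO, 223, 164, 165 and 0.335 in flox after hepatectomy and 122, 91.5, 129 and 73.6 in KO after hepatectomy. The input of 1 hepatectomised flox mouse had only 4 counts while its IP library held 288 CPM, which puts its log2 IP over input at 7.76.

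Bmp6 (ENSMUSG00000039004, chromosome 13, 38345107 to 38500302, plus strand) had no count in 8 of 8 sham inputs. Hepatectomised flox inputs held 56.7, 0, 142 and 0 CPM and hepatectomised KO inputs 0, 0, 18.1 and 24.2 CPM, so 2 of 4 mice in each group had reads and the groups overlapped the sham ones at 0. All sham IP libraries held Bmp6, at 13.2, 16.1, 13.3 and 6.41 CPM in flox and 1.73, 14.2, 41.9 and 12.5 CPM in KO mice, and hepatectomised ones held 0.204, 5.18, 9.71 and 19.9 CPM in flox and 31.1, 14.8, 7.63 and 0 CPM in KO mice. Bmp6 RNA was thus read in 8 of 8 sham IP libraries and in 0 of 8 sham inputs. IP libraries held more genes in general, a median of 11393 with at least 10 counts against 5291.5 in inputs. The share of all genes split as Bmp6 was not counted. Bmp6 shares 224 exon bases with Txndc5 on the opposite strand, and the part of those reads in its level was not tested.

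The transferrin receptor (Tfrc, ENSMUSG00000022797, chromosome 16, 32608920 to 32632794, plus strand) was at 0 in 4 of 4 sham flox inputs. Inputs of the other groups held 0, 104, 108 and 18.1 CPM in sham KO, 0, 0.506, 0 and 85.4 in flox after hepatectomy and 55.5, 10.6, 0 and 44.7 in KO after hepatectomy. Against a floor of 3 counts over the sham flox group, the sham KO mean was at least 892-fold higher, yet 1 of its 4 libraries was at 0 too, and edgeR did not call it. In IP libraries Tfrc stayed low, at 7.08, 0, 0 and 11.3 CPM in sham flox, 0, 35.0, 12.6 and 7.57 in sham KO, 9.74, 22.3, 0 and 0.344 in flox after hepatectomy and 10.4, 5.89, 11.2 and 6.73 in KO after hepatectomy. Sham flox mice with no input count thus had 11.3 CPM or less in IP, and all groups overlapped there. The 5 erythroid markers, from cells rich in this receptor, summed to 0 to 222 CPM in inputs, and their part in Tfrc was not tested.

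Slc11a2 (ENSMUSG00000023030, chromosome 15, 100387898 to 100425072, minus strand) had the largest log2 difference of the members in IP libraries, at low counts. IP levels were 10.98, 17.3, 14.9 and 15.7 CPM in sham flox, 18.2, 26.7, 41.4 and 17 in sham KO, 1.09, 24.0, 19.3 and 21.2 in flox after hepatectomy and 0, 1.28, 1.999 and 3.93 in KO after hepatectomy, the last from 0, 25, 33 and 28 counts. Hepatectomised KO and sham KO libraries did not overlap under either scaling, its mean lies under the 50 CPM of the genes behind the shares given above, and the hepatectomised KO libraries overlapped hepatectomised flox through a single flox library at 1.09 CPM. The edgeR differences were -3.98 (SE 1.34, adjusted p = 0.25) from sham KO and -3.47 (adjusted p = 0.22) from hepatectomised flox, and DESeq2 gave -3.85 (adjusted p = 0.010) and -3.31 (adjusted p = 0.027). Inputs held 0, 0, 21.3 and 94.6 CPM in sham flox, 38.3, 0, 32.8 and 0 in sham KO, 0, 108, 0 and 0 in flox after hepatectomy and 0, 0, 0.164 and 64.7 in KO after hepatectomy. With 9 of 16 inputs at 0, an input change could not be read at this depth. Slc11a2 shares 402 exon bases with Gm5475 on the opposite strand.

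**Figure D5:**
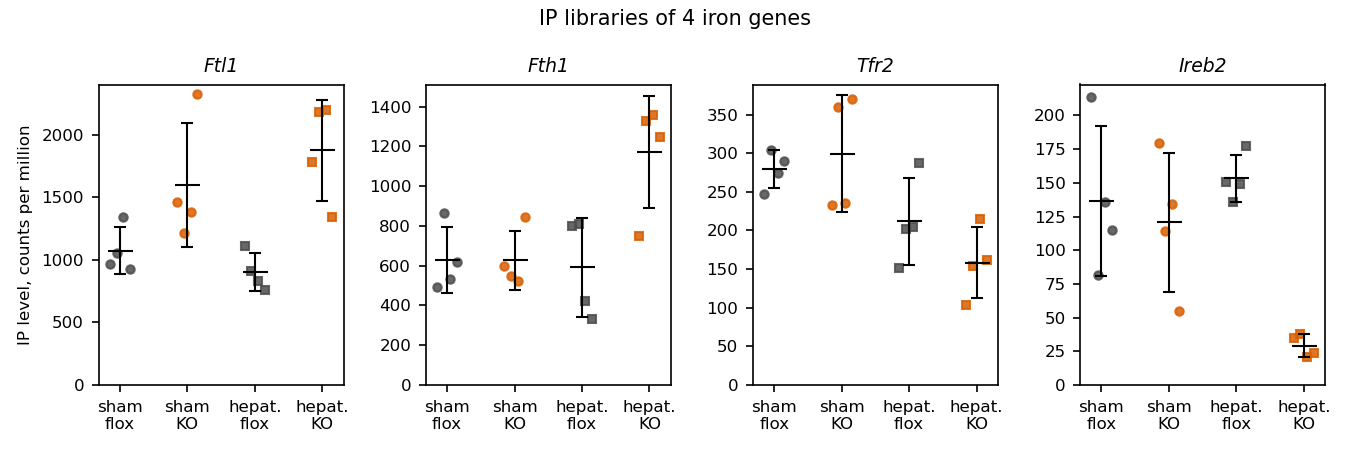
IP level in CPM of Ftl1, Fth1, Tfr2 and the iron sensor Ireb2 by group, one point per library with mean ± SD (n = 4). Hepatectomised KO libraries lie above hepatectomised flox for Ftl1, below sham KO for Tfr2, and at 20.5 to 37.8 CPM against 136 to 177 for Ireb2.

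Over the 19 comparisons, 3 of 190 member tests passed, all of Trf. In the input comparisons of surgery 0 members passed, against 0% of genes in flox and 0.0114% in KO livers, with 3 and 2 members at an unadjusted p under 0.05 and 3 and 1 called by DESeq2. Over all genes 1488 and 242 of 8769 had such an unadjusted p, and DESeq2 called 148 to 1353 across the input comparisons. In IP libraries 0 members passed in the KO comparison in sham livers (0.0927% of 14020 genes), after hepatectomy (1.5%), and for surgery in flox (0.0285%) and KO livers (0.635%), nor for the interaction (0.0285%). There 0, 4, 0, 3 and 1 members had an unadjusted p under 0.05 in edgeR, and DESeq2 called 0, 2, 0, 1 and 0. Over all genes 798, 1866, 972, 1326 and 1105 of 14020 had such an unadjusted p, and DESeq2 called 186 to 809. The median log2 difference of the members in the first 4 of those IP comparisons was 0.40, 0.10, 0.09 and -0.18, beside 0.16, 0.01, 0.05 and -0.10 over all genes. For the change of IP/input, 0 members passed in KO against flox in sham livers (0.0209% of genes) and after hepatectomy (0.712%), with 1 and 1 at an unadjusted p under 0.05 and 1 and 0 called by DESeq2. Surgery in flox (0.181%) and KO livers (0.0349%) and the interaction (0.0419%) also gave 0 members, with 2, 2 and 1 at an unadjusted p under 0.05 and 2, 1 and 1 called by DESeq2. For these changes of IP/input, 2120, 3063, 2925, 1704 and 2057 of 14328 genes had such an unadjusted p, in the order given. DESeq2 called 1611 to 3349 of all genes there. In the genotype comparisons the member medians were -0.03 and -0.63, beside -0.24 and -0.99 over all genes. Members with all libraries of a group at 0 did not move any of these medians when set to their bounds.

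Genes that act around the members were read from 4 lists of 61 genes on hepcidin control, uptake and transport, storage and iron sensing, and heme and iron-sulfur synthesis. In inputs 0 of 53 tested genes passed in any of 5 comparisons, with 5, 3, 8, 0 and 5 at an unadjusted p under 0.05 in edgeR and 4, 4, 8, 0 and 7 called by DESeq2. Over all genes 804, 1227, 1488, 242 and 1082 of 8769 had such an unadjusted p, and DESeq2 called 148 to 1353. In IP libraries 4 of 56 were lower and 0 higher in KO than flox livers after hepatectomy, where 1.16% of all genes were called lower. Ireb2, the iron sensor IRP2 that binds ferritin and transferrin receptor mRNAs, held 151, 136, 149 and 177 CPM in flox after hepatectomy and 34.6, 37.8, 20.5 and 23.6 CPM in KO after hepatectomy (IP libraries). That is a fall with no overlap, as 9.23% of genes of at least 50 CPM showed, of 6.35-fold (log2 difference -2.67, SE 0.45, adjusted p = 0.0013). The sham KO libraries held 179, 114, 134 and 55.2 CPM, from which the hepatectomised KO libraries also differed (-2.17, SE 0.44, adjusted p = 0.014), a call lost in the fit of those 8 libraries (adjusted p = 0.19) and without hepatectomised KO replicate 3 (adjusted p = 0.062). Ireb2 inputs overlapped after hepatectomy, at 202, 110, 282 and 76.8 CPM in flox and 22.6, 67.5, 339 and 186 CPM in KO. The change of its IP/input between those groups was not called.

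The other 3 were the interleukin 6 receptor subunit Il6ra, upstream of Stat3 in hepcidin control, the metalloreductase Steap4, and haptoglobin (Hp), which binds free hemoglobin. Il6ra held 258, 384, 606 and 561 CPM in flox and 88.6, 179.6, 148 and 93.6 CPM in KO IP libraries after hepatectomy (-2.10, SE 0.39, adjusted p = 0.0034). Steap4 held 1505, 2489, 662 and 429 CPM in flox and 292, 272, 276 and 460.5 CPM in KO (-2.26, SE 0.47, adjusted p = 0.0094). Haptoglobin held 16319, 16234, 11830.3 and 7113 CPM in flox and 2250.4, 3457, 1364 and 7096 CPM in KO (-2.15, SE 0.46, adjusted p = 0.012). Il6ra and Hp did not overlap between the genotypes, as in 9.23% of genes of at least 50 CPM, lower in KO. For Hp the highest KO library lay just under the lowest flox one. In Steap4, 1 KO library lay above the lowest flox library. Under 8 alternative settings all 4 genes were called each time, and leaving out 1 library lost only Steap4, once (adjusted p = 0.061). The hepatocyte marker ranges given for these IP libraries apply here too. Il6ra inputs overlapped after hepatectomy, at 460, 553, 669 and 302 CPM in flox and 146, 218, 326 and 555 CPM in KO. The change of Il6ra IP/input between those groups was not called.

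For IP against input within a group, Steap4 passed in sham flox (-2.01), sham KO (-2.43) and hepatectomised KO livers (-2.68), each time lower in IP. Lcn2, a siderophore-binding protein, passed in sham flox (-2.68), and Hp (-1.92) and hemopexin (Hpx, -1.72), which scavenges heme, passed in hepatectomised KO livers. The Hpx call was kept in 3 of 7 alternative settings and lost without replicate 1, 2 or 3 of that group (adjusted p up to 0.257, edgeR), and Steap4 in sham flox was lost without the 2 mice aged 77 days and without sham flox replicate 2 or 4. The other calls of Steap4, Lcn2 and Hp within a group were kept in 7 of 7 settings. Of 57 list genes tested, 2, 1 and 3 were called lower in sham flox, sham KO and hepatectomised KO livers, and 1 higher in hepatectomised flox livers. Over all genes 0.279%, 0.0209%, 0.37% and 1.24% were called in those groups, in the same order. Atoh8, a transcription factor of the hepcidin pathway, had no count in 4 of 4 hepatectomised flox inputs and 29.0, 78.9, 57.4 and 28.1 CPM in their IP libraries, at least 760-fold higher in IP. Its other inputs were uneven, at 72.4, 0, 0 and 80.2 CPM in sham flox and 27.4, 89.1, 9.81 and 81.8 in sham KO. Hepatectomised KO inputs held 3.84, 66.6, 34.6 and 0 CPM of Atoh8. The part of low input counts in this fold was not tested. For the change of IP/input in KO against flox after hepatectomy, Hp (-2.29, adjusted p = 0.00034) and Steap4 (-2.16) fell and Atoh8 was called with all of its flox inputs at 0. These were 3 of 57 list genes tested, all lower, where 0.712% of 14328 genes were called. In the same comparison 4 of the 8 hepatocyte markers were called lower and 0 higher. The hepatocyte marker median was -1.17, beside -0.99 over all genes, and the part of such a general fall in these calls was not tested. Alternative settings kept the call of Hp in 4 of 7, of Steap4 in 2 of 7 and of Atoh8 in 3 of 6. Leaving out 1 mouse kept Hp in 16 of 16 fits, Steap4 in 10 and Atoh8 in 5, and leaving out any 1 of the 8 hepatectomised mice ended the Atoh8 call (adjusted p up to 0.157).

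Over the 16 inputs, the genes whose log2 CPM ran most like Trf were Pkp4 (Pearson r = 0.75), Cltc (0.74), Sqor (0.72), Abhd2 (0.71) and Nudt4 (0.71), among 2628 genes with a median r of 0.04. Of the members, Cp (0.50) and Fth1 (0.50) ranked 109th and 114th, followed by Ftl1 (0.39), Tfr2 (-0.03), Slc40a1 (-0.12) and Hamp (-0.22). For log2 IP over input across 16 mice they were C3 (0.86), Cps1 (0.79), Itih4 (0.79), Plg (0.78) and Gc (0.77), among 2208 genes with a median of 0.08, and Fth1 (0.54) ranked 95th, followed by Cp (0.37), Hamp (0.23), Tfr2 (0.08), Slc40a1 (0.01) and Ftl1 (-0.08). Tfrc, Bmp6 and Slc11a2 were under the 50 CPM minimum of this ranking. All values of a mouse share its libraries and their depth, so these are descriptions of likeness only.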

How the data were processed

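The authors deposited a table of estimated counts per gene for input and m6A-IP libraries of 16 livers. The submitters' processing notes name fastp (read trimming) and STAR (alignment), and for the counting program, its strand setting, the annotation, the genome build and all versions nothing is given in the sources used here. Of the deposited estimated counts, 1.33% to 8.22% per library were not whole and were rounded. Coordinates and gene lengths are those of the deposited table, and symbols came from the RefSeq gene table (GRCm38.p6), matched by position, which named 34382 of 55421 genes.

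CPM was taken over library totals. edgeR 4.0.16 in R 4.3.3 (filterByExpr with a minimum count of 10, TMM factors, glmQLFit, Benjamini-Hochberg adjustment) was fitted to 16 inputs (8769 genes), 16 IP libraries (14020) and all 32 (14328). All 10 members passed these filters. DESeq2 1.42.0, other factors and filters, and leaving out single libraries were alternatives. Fits were tested on simulated data. Per-mouse IP over input used a pseudocount of 1 CPM and exact two-sided permutation tests.

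Input and IP libraries with the same number are from 1 mouse, per the labels, so they are paired within a group. Their deviations from group means correlated at -0.24 to 0.33 (median 0.061, 187 genes of at least 500 CPM). The main fits of all 32 libraries had no term for the animal. With the animal as a replicate block no member call changed in the fits of IP against input (Trf in hepatectomised KO livers -0.99). For the change of IP/input in KO against flox after hepatectomy, that block ended the calls of Steap4 and Atoh8 and kept that of Hp. Numbers in different groups are different mice.

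The members and all gene and marker lists were chosen with earlier results of these data known. The text names every member, the list genes called in a comparison, Hamp2 and the 5 genes most like Trf. Marker sums covered 8 cell types.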

Additional observations from a re-analysis of the deposited data

Results flagged for a closer look

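Among 117 groups of 4 libraries or mice, 11 held 1 value far from the other 3. The rate expected by chance is not known here, since many values lie at or near 0. The log2 IP over input flags of Tfr2 and ferroportin also repeat their input flags. In inputs, Tfrc was 85.4 CPM in hepatectomised flox replicate 4 (others 0 to 0.506), Tfr2 was 0.335 CPM in the same mouse (others 164 to 223), ferroportin was 46.7 CPM in sham KO replicate 1 (others 111 to 126) and 0 CPM in hepatectomised flox replicate 1 (others 82.4 to 189). Slc11a2 was 108 CPM in hepatectomised flox replicate 2 (others 0) and 64.7 CPM in hepatectomised KO replicate 4 (others 0 to 0.164). In IP libraries, Fth1 was 752 CPM in hepatectomised KO replicate 1 (others 1248 to 1360), Cp was 870 CPM in sham flox replicate 4 (others 552 to 567) and Slc11a2 was 1.09 CPM in hepatectomised flox replicate 1 (others 19.3 to 24.0). The low Tfr2 and ferroportin inputs gave a log2 IP over input of 7.76 (others -0.55 to 0.31) and 6.88 (others -0.24 to 0.77). The light-chain ferritin value that differed between groups was the log2 IP over input in hepatectomised KO minus flox livers, 0.80 (exact permutation p = 0.0286).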

How the results depend on the processing

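Counts of members called moved as follows. In inputs, KO against flox went from 1 to 0 with upper-quartile factors, library totals, the 50 CPM minimum and the 8-library fits under both surgeries, and to 0 with DESeq2 after hepatectomy, while the 1 called by DESeq2 in sham livers was Tfrc. For surgery in flox inputs it went from 0 to 3 with DESeq2, 1 with a replicate block on numbers shared across groups (Trf, 0.38, adjusted p = 0.0072), and 0 to 1 leaving out 1 library (Trf without sham flox replicate 1, 0.38, or hepatectomised KO replicate 2, 0.36). In KO inputs it went from 0 to 1 with DESeq2 and 0 to 1 leaving out 1 library (Trf without sham KO replicate 3, 0.37, or hepatectomised KO replicate 3, 0.35), and to 1 without the 2 sham flox mice aged 77 days (Trf, 0.31, adjusted p = 0.0021), and DESeq2 called 1 for the interaction. In IP libraries, KO against flox after hepatectomy went from 0 to 2 with DESeq2 (Ftl1 and Slc11a2), 1 without a filter (Hamp, 1.05) and 1 at the 50 CPM minimum (Ftl1, 1.02), and surgery in KO livers from 0 to 1 with DESeq2. For IP against input, DESeq2 called 2 in sham flox and 1 in sham KO, upper-quartile factors and no filter each called 1 (Trf, -1.22 and -0.55) in hepatectomised flox, and in hepatectomised KO the call of Trf was lost (0) with upper-quartile factors, library totals, DESeq2 and the 50 CPM minimum, and was 0 to 1 leaving out 1 library. For the change of IP/input, DESeq2 called 1 (KO, sham), 2 (surgery, flox), 1 (surgery, KO) and 1 (interaction), mostly genes with all inputs of a group at 0. The cause of these shifts was not tested. Of 2342 single-member values under alternatives, 0 called values changed sign, 22 calls were lost and 17 gained. Over all genes DESeq2 called 148 to 1353 in input comparisons (edgeR 0 to 3), 186 to 809 in IP (4 to 210), 2040 to 4127 for IP against input (3 to 177) and 1611 to 3349 for its change (3 to 102). Other edgeR settings called 0 to 17, 0 to 430, 3 to 190 and 0 to 128 in the same order. Low input counts limit what can be read for Tfrc, Slc11a2 and Bmp6.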
